A study of Mus musculus with 5 samples.

Results

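The LSK and GMP libraries of a sorted mouse bone marrow series were compared gene by gene, over the UMIs (unique molecular identifiers, 1 per captured RNA molecule) summed across the cells of each library. LSK cells were sorted as lineage-negative, SCA1+ and KIT+, and GMP cells as lineage-negative, KIT+, SCA1-, CD34+ and CD16/32+. Both came from healthy wild type C57BL/6 mice, with no treatment, and each gate is 1 library of the 10x Genomics 3' single-cell assay, so gate and library cannot be told apart and no test between replicates exists. The same series holds a CMP library (CD34+ CD16/32- among KIT+ SCA1- cells) and an MEP library (CD34- CD16/32- among KIT+ SCA1- cells), which are given here as levels only. The sources used here give neither the age nor the number of the mice.

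Cells were LSK barcodes with 2110 or more UMIs and all GMP barcodes, each with 500 or more genes and at most 10% of UMIs from mt- (mitochondrially encoded) genes. They numbered 18897 of the 28894 cells kept in the series, 10870 in LSK and 8027 in GMP. The barcode just inside the LSK limit held 2110 UMIs and the one just outside 2109, and the 100th barcodes on either side held 2245 and 1935. The kept cells carried 75167959 UMIs in LSK and 73362645 in GMP. The median LSK cell had 5991.5 UMIs and 2184 genes, and the median GMP cell 9100 UMIs and 2549 genes. LSK and GMP shared 130 cell barcodes, against 118 for random draws from the barcode list. Both libraries expressed Y-linked genes (Eif2s3y 72.6 and 68.1 CPM, the UMIs of a gene per 1000000 UMIs of its library) and next to no Xist.

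LSK cells hold the blood stem cells, which divide slowly at the top of the hierarchy, and the multipotent progenitors that follow them. Together they give rise to every blood lineage. GMP cells lie further down and are committed to neutrophils, monocytes and the rarer basophil and eosinophil lineages. On the way, progenitors switch off the transcription factors and surface receptors of stem cells, and begin to make the proteases and peroxidase that are packed into the granules of neutrophils. Those granule proteins pass through the endoplasmic reticulum (ER), where they are folded and glycosylated.

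The genes behind the antigens that separate the gates, SCA1 and CD16/32, differed as the gates do. Ly6a, a gene of the SCA1 antigen, stood at 78.2 CPM in LSK and 1.10 in GMP. Fcgr3, which encodes CD16, stood at 0.838 and 208 CPM, and Fcgr2b, one of the genes of CD32, at 6.31 and 61.5 CPM, both higher in GMP. Kit stood at 100.5 and 34.9 CPM although both gates are KIT+ (past the rule given below on the CPM scale only), and Cd34 at 399 and 118 CPM. Ly6e, of the same family as Ly6a but part of no gate, stood at 380.3 and 559 CPM. In cells thinned to 2000 UMIs each, Ly6a was found in 15.5% of LSK and 0.212% of GMP cells, so its mRNA was not detected in most cells that were sorted on the protein. Sums over a library do not tell fewer cells with a transcript from less of it per cell, and shares of cells are therefore given beside the levels below.

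The rule for a difference was a ratio of at least 2, with at least 50 CPM in the library where the gene was higher. Of 3149 genes with 50 CPM or more in either library, 420 (13.3%) were higher in LSK and 236 (7.49%) in GMP, 656 (20.8%) together. The median fold was 3.26 over the LSK genes and 2.68 over the GMP genes. A ratio of 4 or more was found in 165 and 70 genes, of 10 or more in 62 and 41, and of 100 or more in 9 and 16. The genes higher in GMP took 11.5% of GMP UMIs and 2.79% of LSK UMIs, and those higher in LSK took 8.40% of LSK UMIs and 2.51% of GMP UMIs. Intervals given below are exact at 95% and cover counting error only. The lower limit of the fold lay above 2 for 384 and 215 of these genes. In every gene, LSK and GMP are single values, so the intervals say nothing of the spread between mice.

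The share of genes on each side depended on the scale. Scaling by median-of-ratios factors moved every log2 ratio by -0.54 and scaling by TMM (trimmed mean of M values) by -0.47, and with median-of-ratios factors 194 genes were higher in LSK and the genes higher in GMP numbered 836. On all 3 scales (CPM, median-of-ratios and TMM), 194 (6.16%) LSK genes and all 236 GMP genes met the rule. Both sets of factors move every gene towards GMP, so a GMP call could not be lost under them. With totals that leave out cytosolic ribosomal protein and mt- genes, 200 of the 236 genes higher in GMP still met the rule, and all of the named LSK genes did. Below, "every scale" means these 3 scales. The median log2 ratio was 0.44 over the 11433 genes whose mean was at least 1 CPM, and 0.01 over the genes with 50 CPM or more. It fell along the level of expression, from 1.36 over 1564 genes of 1 to 3 CPM to -0.25 over 691 genes of 200 CPM or more. LSK cells contained UMIs of 17475 genes and GMP cells of 15766. Where a gene or list on the LSK side is called on the CPM scale only, this is said beside it.

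**Figure D1:**
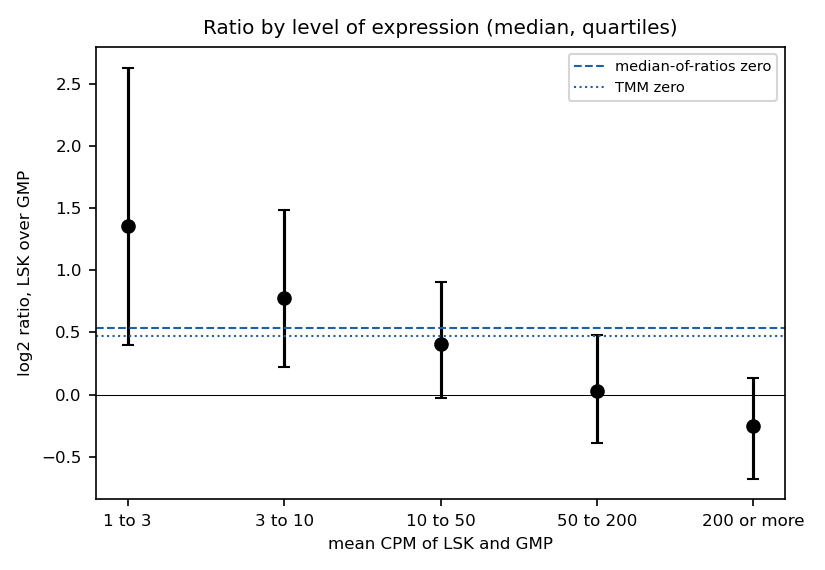
Median log2 ratio of CPM, LSK over GMP, in bins of the mean CPM of both libraries, with bars from the first to the third quartile over genes. The median falls from 1.36 in the lowest bin to -0.25 in the highest. The dashed and dotted lines mark where equality lies once the shifts of -0.54 (median-of-ratios) and -0.47 (TMM) are applied.

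**Figure D2:**
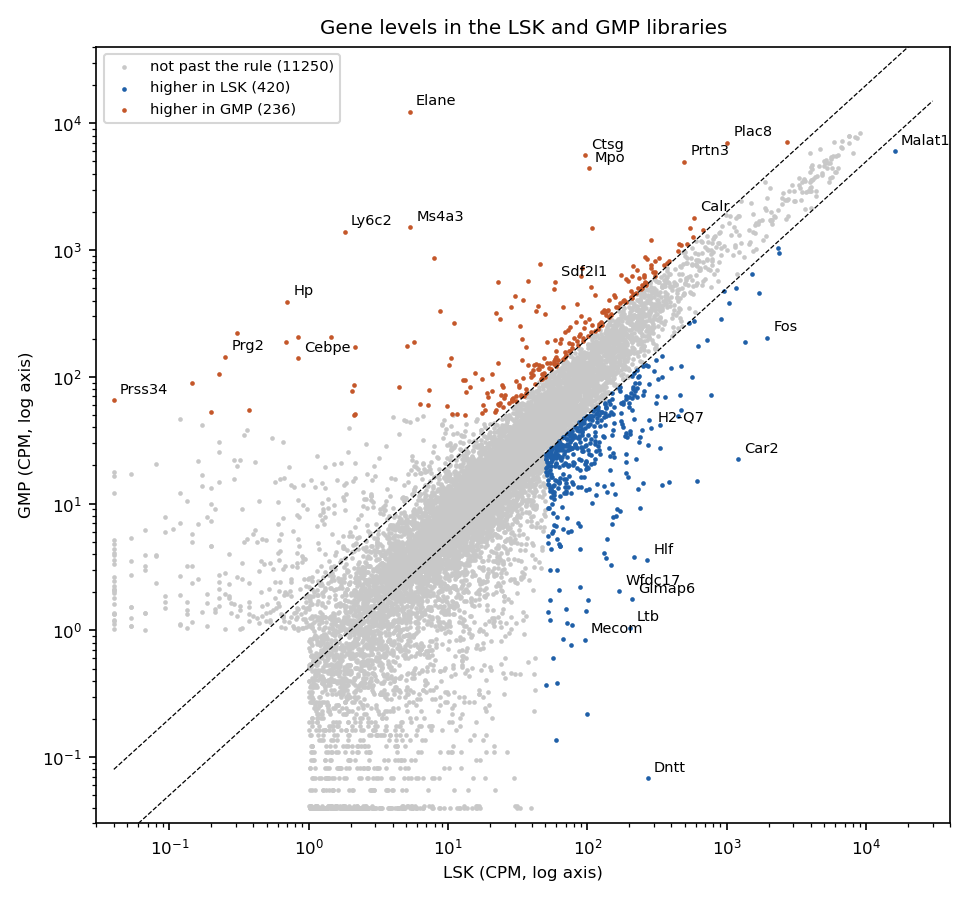
CPM of each gene with 1 CPM or more in either library, LSK on the horizontal and GMP on the vertical axis, both logarithmic, with counts under 3 drawn at the level of 3 UMIs. The dashed lines mark a ratio of 2 in each direction, blue points are the 420 genes higher in LSK and orange points the 236 higher in GMP. Elane lies farthest above the lines and Dntt farthest below.

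Stem cell genes were the first group on the LSK side. Of 18 genes listed for stem and multipotent cells, all had a positive ratio, and 12 were past the rule, all higher in LSK and 10 of them on every scale. Their median log2 ratio was 4.37, against 0.44 for all genes. Mecom, a transcription factor needed to maintain stem cells, stood at 95.9 CPM in LSK and 0.845 in GMP (log2 ratio 6.83, interval 6.47 to 7.21). Hlf, a transcription factor whose expression marks stem cells, stood at 269 and 3.56 CPM. It was found in 41.7% of thinned LSK cells (interval 40.8 to 42.6%), 2.09% of CMP, 0.673% of GMP and 0.334% of MEP cells, and without thinning in 72.1% of LSK and 3.11% of GMP cells. At 2000 UMIs a cell, Hlf was thus in a large minority of LSK cells and in under 1% of GMP and MEP cells.

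Other members of the list, among them receptors and a secreted factor, differed by unequal amounts. Procr, a surface receptor used to purify stem cells, stood at 56.7 CPM in LSK and 0.5998 in GMP (log2 ratio 6.56). It dropped below 50 CPM under median-of-ratios and TMM scaling, through the minimum and not through the ratio. Angpt1, a ligand of the TIE2 receptor, stood at 172 and 8.78 CPM, and Cd27, a receptor of the TNF family, at 217 and 46.7 CPM. Txnip, which binds and inhibits thioredoxin, stood at 195 and 16.3 CPM. The lowest log2 ratio among the 18 members was 2.02 on the CPM scale, so no member came within 4-fold of equality on that scale. Under median-of-ratios scaling some did, such as Cd27 at 1.68 and Hoxa9 at 1.85.

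Of 25 transcription regulators listed for stem cells, 12 were higher in LSK (11 on every scale) and none in GMP, with a median log2 ratio of 2.49. The homeobox factors Meis1 and Hoxa9 stood at 151 and 6.86 CPM and at 97.6 and 18.7 CPM. Lmo2, an adaptor in stem cell transcription complexes, stood at 902 and 285 CPM, and Gata2 at 70.2 and 12.5 CPM. Mecom and Meis1 were found in few GMP cells, 0.212% and 1.45% after thinning, whereas Lmo2 was still found in 43.0% of GMP cells against 82.6% of LSK cells. Nkx2-3 and Tcf15, a homeobox and a basic helix-loop-helix regulator below the 50 CPM minimum and named here after their values were seen, stood at 39.6 and 16.0 CPM in LSK and had 0 UMIs in GMP. Set against the limit that 3 UMIs give, Nkx2-3 was at least 969-fold and Tcf15 at least 392-fold higher in LSK.

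Lymphoid genes formed the second group, with the largest ratio of all on the LSK side. Dntt, the polymerase that adds nucleotides where antigen receptor genes are joined, had 20422 UMIs in LSK and 5 in GMP, or 272 CPM in LSK and 0.0682 in GMP (log2 ratio 11.96, interval 10.74 to 13.58). It was found in 19.7% of thinned LSK cells (interval 18.9 to 20.4%) and in 0.0374% of GMP and 0.0318% of MEP cells. Unthinned shares were 34.0% in LSK and 0.0498% in GMP. Dntt was thus not detected in almost all GMP cells and detected in a minority of LSK cells, with 2.41 UMIs per positive thinned cell. In LSK barcodes of 100 or fewer UMIs, which hold free RNA, Dntt stood at 248 CPM, so the free RNA of that library carried the transcript at nearly the level of its cells.

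Of 13 lymphoid-primed genes in the files, 11 were detected, with a median log2 ratio of 2.58, and 5 were higher in LSK on every scale (Dntt, Flt3, Lsp1, Satb1 and Mef2c). Flt3, the cytokine receptor of early lymphoid and dendritic progenitors, stood at 131 CPM in LSK and 4.06 in GMP, and Mef2c at 317 and 71.1 CPM. Il7r, the interleukin 7 receptor, had 4.27 CPM in LSK and 1 UMI in GMP and did not reach the minimum. Cd52, also on the list, was not past the rule, at 227 and 298 CPM. Ltb, which encodes lymphotoxin beta, stood at 202 and 1.05 CPM and was found in 31.4% of LSK and 0.299% of GMP cells after thinning, against 0.334% of MEP cells. The GIMAP family, small GTPases best known from lymphocytes, had a median log2 ratio of 6.90 over 7 detected members, and 3 passed the rule, Gimap6 at 209.6 and 1.76 CPM, Gimap1 at 215 and 3.803 CPM and Gimap5 at 60.9 and 0.382 CPM.

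Antigen presentation genes of class II were higher in LSK for 5 of 9 members (4 on every scale) and in GMP for none. Cd74, the invariant chain of class II molecules, stood at 238 CPM in LSK and 9.23 in GMP and H2-Aa, an alpha chain, at 139 and 5.22 CPM. Cd74 was found in 25.2% of thinned LSK cells with 2.15 UMIs per positive cell, and in 0.224% of GMP cells with 15.3 UMIs per positive cell, against 0.525% of MEP cells. In LSK the gene was thus spread thinly over many cells, and in GMP it was held at a high level by very few. The list of dendritic cell markers, which contains 4 of these class II genes, had 6 of 9 detected members higher in LSK and none in GMP. Of its members outside class II, Flt3 and Tcf4 (122 and 24.8 CPM) were higher in LSK on every scale. Siglech had 16 UMIs in LSK and 0 in GMP, Itgax stood at 0.678 and 0.177 CPM and Cst3 at 496 and 990.2 CPM. Their part in the class II values was not tested.

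Immediate early genes, which are induced within minutes by growth factors, cytokines or stress, had more members past the rule towards LSK than any other of the 62 lists. Of 22 detected members all had a positive ratio, 15 were higher in LSK (13 on every scale) and none in GMP, with a median log2 ratio of 3.04. Fos, a subunit of the AP-1 factor, stood at 1957 CPM in LSK and 204 in GMP, at 798 in CMP and at 99.2 in MEP. Jun, its partner, stood at 1699 and 459.5 CPM, Dusp1, a phosphatase of MAP kinases, at 469 and 54.4 CPM and Egr1, a zinc finger factor, at 163 and 9.12 CPM. After thinning, Fos was found in 81.1% of LSK cells and 57.6% of CMP cells, and in 26.6% and 17.9% in GMP and MEP. The list summed to 8426 CPM in LSK and 5413 in CMP, but to 1517 in GMP and 860.0 in MEP, so CMP lay nearer to LSK and MEP nearer to GMP. Of 22 detected heat shock and chaperone genes, 1 (Dnajb1, 126 and 46.0 CPM, on the CPM scale only) was past the rule, and their median log2 ratio was -0.05. These values moved with the library, and their part in the other differences on the LSK side was not tested.

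Among cell cycle inhibitors and quiescence genes, 3 of 16 detected members were higher in LSK (2 on every scale) and none in GMP. Only 5 members had 50 CPM or more, so the count rests on few genes. Of all genes with 50 CPM or more, 13.3% were higher in LSK, or 6.16% on every scale. The 3 members were Txnip, Pnrc1 at 312 and 62.6 CPM and, on the CPM scale only, Btg2 at 75.2 and 27.0 CPM. Cdkn1c, the p57 inhibitor of cyclin-dependent kinases, stood at 24.9 and 0.463 CPM, under the minimum. Klf2, a factor linked to quiescence in lymphocytes, is on the immediate early list and not on this one, and stood at 329.7 and 41.8 CPM.

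Class I antigen presentation and interferon response genes were higher in LSK by smaller ratios. Of 16 class I genes, 8 were higher in LSK (5 on every scale) and none in GMP, with a median log2 ratio of 1.24, or 0.70 under median-of-ratios scaling. H2-K1, a classical class I heavy chain, stood at 1172 and 498 CPM (on the CPM scale only), and B2m, the shared light chain, at 3662 and 2118 CPM, within the 2-fold limit. The nonclassical H2-Q4, H2-Q6 and H2-Q7 stood at 151 and 14.3 CPM, 132 and 13.8 CPM and 287 and 39.5 CPM, but they are near-identical copies between which 3' reads may be split. Of 28 interferon response genes, 11 had 50 CPM or more, 6 were higher in LSK (3 on every scale) and none in GMP. A positive ratio was found in 26 of the 28, with a median log2 ratio of 1.99. Of all genes, 82.9% of those of 3 to 10 CPM and 73.6% of those of 10 to 50 CPM had a positive ratio. Ifitm1 and Ifitm3, membrane proteins that restrict viral entry, stood at 768 and 71.7 CPM and 720.2 and 196 CPM, whereas their neighbour Ifitm2 was at 703 and 734 CPM. Ifitm1 was found in 72.5% of LSK and 10.9% of GMP cells after thinning. Rtp4 stood at 54.2 and 1.21 CPM (on the CPM scale only) and Isg15, under the minimum, at 35.5 and 4.28 CPM.

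**Figure D3:**
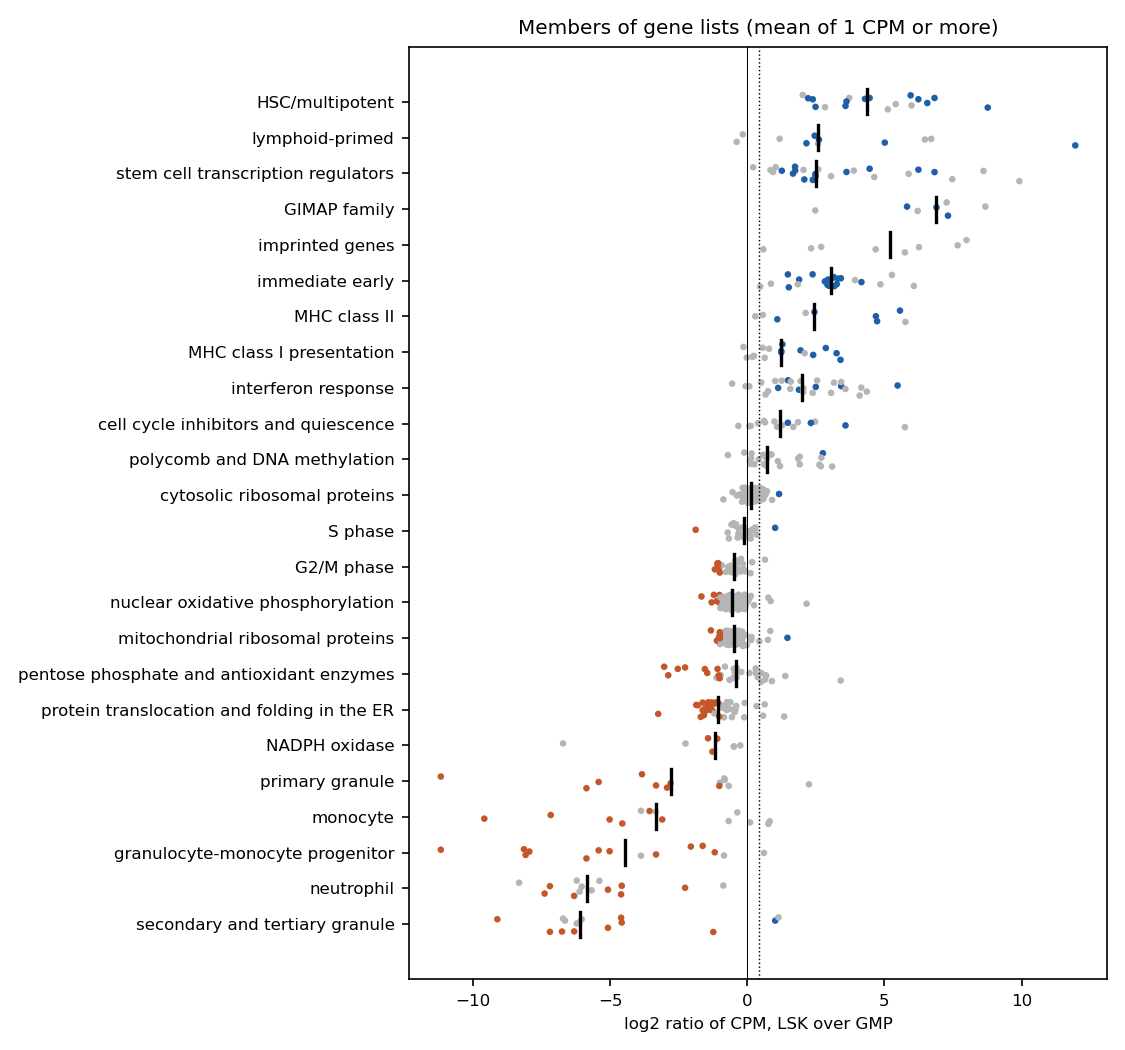
Log2 ratio of CPM, LSK over GMP, for the members of 24 gene lists with a mean of 1 CPM or more, with black bars at the list medians and the dotted line at 0.44, the median of all such genes. Blue members are past the rule towards LSK, orange ones towards GMP, grey ones are not past it. All stem cell and immediate early members lie right of 0, granule and ER members mostly left, and most ribosomal protein and S phase members near 0.

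Genes of the primary granules, the first granules made in the neutrophil lineage, included Elane, the gene with the largest ratio towards GMP. Of 13 detected members, 8 were higher in GMP on every scale (7 with the total without ribosomal protein and mt- genes, which loses Serpinb1a) and none in LSK, with a median log2 ratio of -2.80. The list took 3.81% of all GMP UMIs and 0.352% of LSK UMIs. Elane, which encodes neutrophil elastase, had 907787 UMIs in GMP and 400 in LSK, or 12374 and 5.32 CPM (log2 ratio -11.18, interval -11.33 to -11.04). Its level in LSK barcodes of 100 or fewer UMIs was 14.4 CPM, from 17 UMIs. This is above that of the LSK cells, so the LSK value did not exceed that of free RNA. Ctsg, cathepsin G, stood at 95.9 CPM in LSK and 5613 in GMP, and Mpo, myeloperoxidase, at 103 and 4405 CPM. Prtn3, proteinase 3, stood at 496 and 4994 CPM and Prss57 at 33.0 and 251 CPM. In the LSK barcodes of 100 or fewer UMIs, Mpo stood at 133 CPM, Ctsg at 110.2 and Prtn3 at 474. The LSK levels of Mpo and Ctsg thus did not exceed that of free RNA either, and that of Prtn3 was close to it. Genes of the LSK side also stood near their cell levels there (Ly6a 80.5 CPM, Mecom 90.7 and Ifitm1 776, against 78.2, 95.9 and 768 in LSK cells). The comparison therefore cannot tell background from expression in LSK cells.

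These granule genes were therefore lower in LSK by very different amounts. The fold was 2325 for Elane, 58.5 for Ctsg, 43.0 for Mpo and 10.1 for Prtn3. In thinned LSK cells, Prtn3 was found in 57.8% (interval 56.8 to 58.7%), Mpo in 11.4% (10.8 to 12.0%), Ctsg in 7.55% (7.06 to 8.07%) and Elane in 0.432% (0.318 to 0.575%). Without thinning, Prtn3 was in 86.2% and Elane in 1.24% of LSK cells. In GMP each of these 4 genes was in at least 98.5% of thinned cells, and in MEP, the gate that should lack them, Prtn3 was in 2.39% and the others in at most 0.0637%. The part of free RNA in the LSK shares was not tested. CMP cells held an intermediate place, with Prtn3 in 71.9%, Mpo in 70.1%, Ctsg in 68.4% and Elane in 29.8%. Prtn3 and Elane are neighbours on chromosome 10, with Prss57 in the same stretch (79781474 to 79888215, GRCm38), so genes of the same stretch that were all abundant in GMP stood at very different levels in LSK.

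The sequences before the starts of 3 of these genes are shown because GAGGAAGT, a core of the kind that ETS factors such as PU.1 bind, was found in the 250 bases before the start in 3 of the 6 higher primary granule genes with a promoter entry. It was found on either strand in 2.78% of the 2448 genes with 50 CPM or more that have an entry and in 2.31% of all 17853 entries. The match lies at positions -85 to -78 from the start in Elane, -95 to -88 in Prtn3 and -224 to -217 in Mpo, on the gene's strand. Ctsc of the same list, which was not past the rule, also had the motif, at -151 to -144 on the opposite strand. Sequences are from the RefSeq promoter table (GRCm38.p6), 5′ to 3′ on the gene's strand, end before the first exon annotated by GENCODE, and have the match in capitals. They are chr10:79886062-79886246 (+), chr10:79879417-79879613 (+) and chr11:87793534-87793580 (+). The RefSeq start lies 65 bases from the GENCODE gene start in Elane, 203 in Mpo and 5191 in Prtn3.
Elane: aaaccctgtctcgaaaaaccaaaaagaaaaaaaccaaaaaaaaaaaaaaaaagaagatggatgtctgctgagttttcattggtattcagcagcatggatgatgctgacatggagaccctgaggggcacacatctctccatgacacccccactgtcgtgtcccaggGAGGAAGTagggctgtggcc
Prtn3: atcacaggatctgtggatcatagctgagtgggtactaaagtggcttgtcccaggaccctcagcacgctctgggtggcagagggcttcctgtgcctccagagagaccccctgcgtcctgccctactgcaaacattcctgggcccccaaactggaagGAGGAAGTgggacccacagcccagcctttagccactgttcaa
Mpo: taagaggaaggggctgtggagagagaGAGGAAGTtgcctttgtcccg
None of the 6 promoters had a CpG ratio (observed over expected CpG) of 0.6 or more, against 79.0% of the genes with 50 CPM or more. Spi1, which encodes PU.1, was not past the rule, at 156 and 251 CPM. A match is a description of the letters and was not tested as a binding site.

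Secondary and tertiary granule genes, which the neutrophil lineage makes later, were higher in GMP for 8 of 15 detected members on every scale. Only S100a6 was past the rule towards LSK (72.4 and 35.8 CPM, CPM scale only), and the median log2 ratio was -6.12. Several of these genes sat in few GMP cells at a high level. Camp, the cathelicidin, stood at 5.11 and 174 CPM and was found in 1.91% of thinned GMP cells with 39.7 UMIs per positive cell. Ngp was in 3.09% with 24.8 UMIs, and S100a9, a calcium-binding alarmin, in 4.45% with 25.7 UMIs. Hp, which encodes haptoglobin, was instead in 51.3% of GMP cells and Slpi, a protease inhibitor, in 66.1%. Their levels were 0.705 and 392 CPM and 7.93 and 861 CPM.

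Of the basophil, mast cell and eosinophil genes, Prg2 and Prss34 also sat in few GMP cells at a high level. Prg2, the eosinophil major basic protein, stood at 0.253 and 144 CPM and was in 2.70% of thinned GMP cells (interval 2.36 to 3.08%) with 14.8 UMIs each. Prss34, a serine protease of basophils and mast cells, had 4824 UMIs in GMP and 2 in LSK (log2 ratio -10.69, interval -14.32 to -9.42, with the LSK count set to 3 in the ratio), and was in 1.72% of GMP cells with 13.4 UMIs each. Mcpt8, Cpa3 and Hdc of the basophil and mast cell list were also higher in GMP, at 10.6 and 139.9 CPM, 22.9 and 129 CPM and 2.04 and 77.6 CPM, and were found in 12.0%, 11.7% and 13.6% of thinned GMP cells, while Gata2 of the same list was higher in LSK. Of 92 genes past the rule towards GMP and named by the rule for named genes, 37 were in 50% or more of thinned GMP cells and 6 in under 5% (Camp, Lcn2, Ngp, Prg2, Prss34 and S100a9). Of 98 such genes towards LSK, 14 were in 50% or more of LSK cells and 0 in under 5%.

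Monocyte genes were higher in GMP for 6 of 13 members and in LSK for none, with a median log2 ratio of -3.34. Ly6c2, the LY6C surface antigen of monocytes, stood at 1.81 CPM in LSK and 1399.8 in GMP and was in 0.120% of LSK, 11.7% of CMP and 79.0% of GMP cells after thinning, and in 0.0318% of MEP cells. F13a1, coagulation factor XIII A, stood at 1.44 and 207 CPM, Ly86 at 5.75 and 187 CPM and Ccr2, the receptor for CCL2, at 2.17 and 51.2 CPM. Lyz2, lysozyme, was not past the rule, at 274 and 439 CPM. Ms4a3, a GMP marker of the MS4A family, stood at 5.36 and 1522 CPM and was in 83.7% of GMP and 0.690% of LSK cells. All 3 MS4A genes with 50 CPM or more (Ms4a3, Ms4a6b and Ms4a6c) were higher in GMP.

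Myeloid transcription regulators split between the gates. Of 18 detected members, 5 were higher in GMP and 2 in LSK, and the median log2 ratio was -0.44. Cebpe, which drives the later steps of granulocyte development, stood at 0.838 CPM in LSK and 141 in GMP, and Irf8, which drives monocyte and dendritic cell fates, at 57.4 and 495 CPM. Cebpa and Cebpb, of the same family as Cebpe, stood at 31.0 and 70.7 CPM and 68.6 and 227 CPM, and Zeb2 at 57.8 and 134 CPM. Klf2 and Stat3 (71.9 and 23.1 CPM) were higher in LSK. Irf8 was in 47.2% of thinned GMP and 44.5% of CMP cells, and Cebpe in 20.8% and 1.12%, so Irf8 was nearly as frequent in CMP as in GMP and Cebpe was not.

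Among 30 detected cytokine receptors, Csf2ra (36.2 and 80.2 CPM) and Ifngr1 (83.0 and 272 CPM), subunits of the GM-CSF and interferon gamma receptors, were higher in GMP. Flt3 and Cd27 were higher in LSK on every scale, and Kit, Il21r and Il17ra on the CPM scale only. Csf1r, the receptor of macrophage colony-stimulating factor, was under the minimum at 1.32 and 19.4 CPM. Csf3r, the receptor of granulocyte colony-stimulating factor, was not past the rule, at 29.2 and 19.2 CPM.

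On the CPM scale, genes of protein translocation and folding in the ER had more members past the rule towards GMP than any other of the 62 lists. Of 44 members, 41 had 50 CPM or more, 23 were higher in GMP on every scale (21 with the total without ribosomal protein and mt- genes), none in LSK, and the median log2 ratio was -1.07. Under median-of-ratios factors 35 ER genes were higher in GMP, fewer than the 46 of nuclear oxidative phosphorylation and the 41 of mitochondrial ribosomal proteins. Under TMM factors these counts were 34, 40 and 36, so the first place of the ER list depends on the scale. Calr, a calcium-binding chaperone of glycoproteins, stood at 582 CPM in LSK and 1803 in GMP, and Sdf2l1, a component of ER chaperone complexes, at 58.8 and 561 CPM. Pdia6, a disulfide isomerase, stood at 213 and 745 CPM, Manf at 174 and 635 CPM and Hsp90b1, the ER member of the HSP90 family, at 227 and 702 CPM. Hspa5, the ER chaperone BiP, stood at 373 and 796 CPM, and Sec61b, a subunit of the translocation channel, at 549 and 1499.9 CPM. Xbp1, a transcription factor of the unfolded protein response, stood at 67.2 and 137 CPM. Apart from Sdf2l1 (log2 ratio -3.25), the 23 genes differed by less than 4-fold on the CPM scale. The shares of cells differed by gene: Calr was in 63.6% of LSK and 93.8% of GMP cells after thinning, and Sdf2l1 in 8.79% and 62.6%.

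Summed over the list, the level was 16727 CPM in GMP, 11734 in CMP, 8758 in MEP and 7401 in LSK. CMP thus lay between LSK and GMP, and MEP nearer to LSK.

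Of the genes with a promoter entry, 18 of the 23 ER genes higher in GMP could be searched for the ER stress response element (CCAAT and, after 9 bases of any kind, CCACG), the sequence that the factors ATF6 and NF-Y bind together. It was found in 5 of them (27.8%), in 8 of the 2448 genes with 50 CPM or more (0.327%) and in 24 of all 17853 entries (0.134%), on either strand within the 250 bases before the start. Of those 8 genes, 7 were on the ER list. Among the 15 ER genes with 50 CPM or more and an entry that were not past the rule, 2 had the element (13.3%). These were Dnajc3 (89.1 and 150.3 CPM) and Canx (138 and 246 CPM). Hnrnpa3 (601 and 834 CPM), outside the list, was not past the rule either. The element was thus mostly a trait of the ER list, and its part in the difference between the libraries was not tested. The element contains CCAAT, which alone was in 77.8% of the 18 ER promoters, in 60% of those 15 and in 37.7% of the genes with 50 CPM or more. The promoters of the 5 genes are printed to show where the element lies, in capitals, on the same conventions as above; a match on the opposite strand reads as the reverse complement, and for Hspa5 the element alone is printed, since GENCODE places it in an exon. They are chr2:34772025-34772043 (+), chr10:86705510-86705694 (-), chr8:84846935-84847181 (-), chr12:17266339-17266544 (+) and chr15:88819396-88819645 (+).
Hspa5: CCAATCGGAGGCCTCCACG
Hsp90b1: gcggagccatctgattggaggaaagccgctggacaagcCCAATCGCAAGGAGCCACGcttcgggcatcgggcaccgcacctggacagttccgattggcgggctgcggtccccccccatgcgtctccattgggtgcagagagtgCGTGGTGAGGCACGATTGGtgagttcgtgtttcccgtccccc
Calr: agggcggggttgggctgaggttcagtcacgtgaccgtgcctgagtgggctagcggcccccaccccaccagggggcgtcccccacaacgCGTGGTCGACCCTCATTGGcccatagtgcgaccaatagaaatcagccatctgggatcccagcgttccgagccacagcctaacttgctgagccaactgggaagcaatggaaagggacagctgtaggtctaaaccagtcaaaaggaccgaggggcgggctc
Pdia6: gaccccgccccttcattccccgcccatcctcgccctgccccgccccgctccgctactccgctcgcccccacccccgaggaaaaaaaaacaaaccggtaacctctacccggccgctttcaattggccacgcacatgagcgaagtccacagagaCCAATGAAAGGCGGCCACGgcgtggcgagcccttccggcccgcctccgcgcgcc
Creld2: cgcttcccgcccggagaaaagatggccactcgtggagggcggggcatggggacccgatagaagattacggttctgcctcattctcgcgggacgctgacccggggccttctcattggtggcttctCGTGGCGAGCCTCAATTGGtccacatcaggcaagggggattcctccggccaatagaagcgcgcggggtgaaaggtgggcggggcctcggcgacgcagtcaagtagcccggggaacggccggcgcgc
The element began at position -65 from the start in Hspa5, -98 in Pdia6, -162 in Calr and -126 in Creld2, and Hsp90b1 held it at -212 and at -107. Creld2 was the lowest of the 5 in level, at 28.7 and 65.6 CPM.

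Redox and heme enzymes added a small set of steep genes on the GMP side. Of 32 pentose phosphate and antioxidant genes, 9 were higher in GMP (7 of them with the total without ribosomal protein and mt- genes) and none in LSK, with a median log2 ratio of -0.43. Gsr, glutathione reductase, stood at 44.3 CPM in LSK and 363 in GMP and was in 8.30% of LSK, 12.5% of CMP and 49.6% of GMP cells after thinning. Gstm1 and Mgst1, glutathione transferases, stood at 106 and 512 CPM and 34.0 and 197 CPM, and Gpx1, glutathione peroxidase 1, at 673 and 1429.7 CPM. Alas1, the first enzyme of heme synthesis outside the red cell lineage, stood at 28.2 and 354 CPM and was the only 1 of 8 detected heme synthesis genes past the rule. Of 8 subunits of the NADPH oxidase, which makes superoxide in phagocytes, 3 were higher in GMP (Cyba, Ncf1 and Ncf4), and Cybb, its catalytic subunit, was under the minimum at 0.359 and 38.0 CPM. Of 28 lysosomal genes, Ctsz, Ctsh, Lamp1 and Hexa were higher in GMP, with Ctsz at 84.5 and 373 CPM.

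Nuclear genes of mitochondrial proteins had mostly small negative ratios. Of 79 detected nuclear genes of oxidative phosphorylation, 6 were higher in GMP (4 with the total without ribosomal protein and mt- genes) and none in LSK, 71 had a negative ratio, and the median log2 ratio was -0.55. Cycs, cytochrome c, stood furthest apart of these 6, at 267 and 855 CPM. Mitochondrial ribosomal protein genes had a median of -0.50, with 6 of 76 higher in GMP (2 with that total) and Mrpl52 higher in LSK (226 and 82.1 CPM, CPM scale only). On the CPM scale the shares of both lists are close to the 7.49% of all measured genes that were higher in GMP. Under median-of-ratios factors, 46 and 41 members of the 2 lists were higher in GMP, and under TMM factors 40 and 36. On those scales the shares were larger than over all measured genes, so the reading depends on the scale. The 13 mitochondrially encoded genes had none past the rule, a median of 0.14 on the CPM scale and -0.40 under median-of-ratios scaling, which turns its direction, and took 3.21% of LSK and 3.03% of GMP UMIs.

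Cell cycle genes differed by less on the CPM scale. Of 30 G2/M genes, 6 were higher in GMP (Ccnb1, Aurkb, Birc5, Cks1b, Cks2 and Ube2c) with ratios just over 2, none in LSK, and the median log2 ratio was -0.50. With the total without ribosomal protein and mt- genes, only Cks1b and Cks2 of the 6 still met the rule. Under median-of-ratios factors 14 G2/M genes were higher in GMP and under TMM factors 13, so the count depends on the scale. Birc5, survivin, stood at 148 and 311 CPM. Of 30 S phase genes, Rrm2, a subunit of ribonucleotide reductase, was higher in GMP (51.3 and 189.7 CPM), and Chaf1b in LSK (71.0 and 35.2 CPM, CPM scale only), with a median of -0.11. In CMP and MEP, Birc5 stood at 243 and 341 CPM.

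Several housekeeping groups stood near equality on the CPM scale. No aminoacyl-tRNA synthetase (23 genes) or nucleotide and one-carbon synthesis gene (25) was past the rule, and their median log2 ratios were -0.17 and -0.17. The 84 detected cytosolic ribosomal protein genes had a median of 0.13, or -0.41 under median-of-ratios scaling, which turns its direction. Ribosomal protein genes took 33.4% of LSK and 29.6% of GMP UMIs. Proteasome genes lay further towards GMP, with a median log2 ratio of -0.45 and a positive ratio in 6 of 46 detected members. Of these 46, Psmb3 was higher in GMP on the CPM scale (264 and 552 CPM), but not with the total without ribosomal protein and mt- genes. Under median-of-ratios factors 18 proteasome genes were higher in GMP, and under TMM factors 12. Malat1, a nuclear long noncoding RNA and the most abundant transcript past the rule in LSK, stood at 15987 and 6071 CPM (CPM scale only).

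No member of the B cell, macrophage or endothelial lists reached 50 CPM in either library, so none could pass the rule. Ms4a1 had 0 UMIs in both libraries. Summed over each list, B cell markers came to 54.1 CPM in LSK and 54.3 in GMP, most of it Cd79b (42.2 and 49.0 CPM), macrophage markers to 9.75 and 14.6, and endothelial and stromal markers to 61.6 and 39.3. Cd3e had 2 and 0 UMIs and Cd8a none, while Nkg7 of the T and natural killer cell list, which is on the GMP list as well, stood at 288 and 1205 CPM. Of the erythroid list only Car2, carbonic anhydrase 2, had 50 CPM or more in LSK or GMP and could pass the rule. It did so, at 1209.8 CPM in LSK and 22.6 in GMP, and stood at 4174 in MEP. After thinning it was in 98.6% of MEP, 83.1% of LSK and 4.45% of GMP cells. All 9 detected erythroid members had a positive ratio, as did 82.9% of all genes of 3 to 10 CPM. Their median log2 ratio was 3.34 and the list sums were 1303 and 30.5 CPM. Hbb-bt stood at 42.1 and 0.5998 CPM, Car1 at 23.5 and 1.17 CPM and Alas2 at 0.0266 and 0.0136 CPM. Of the megakaryocyte list, Pf4, platelet factor 4, was higher in LSK on every scale, at 88.5 and 4.36 CPM, and Fli1 on the CPM scale only.

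**Figure D4:**
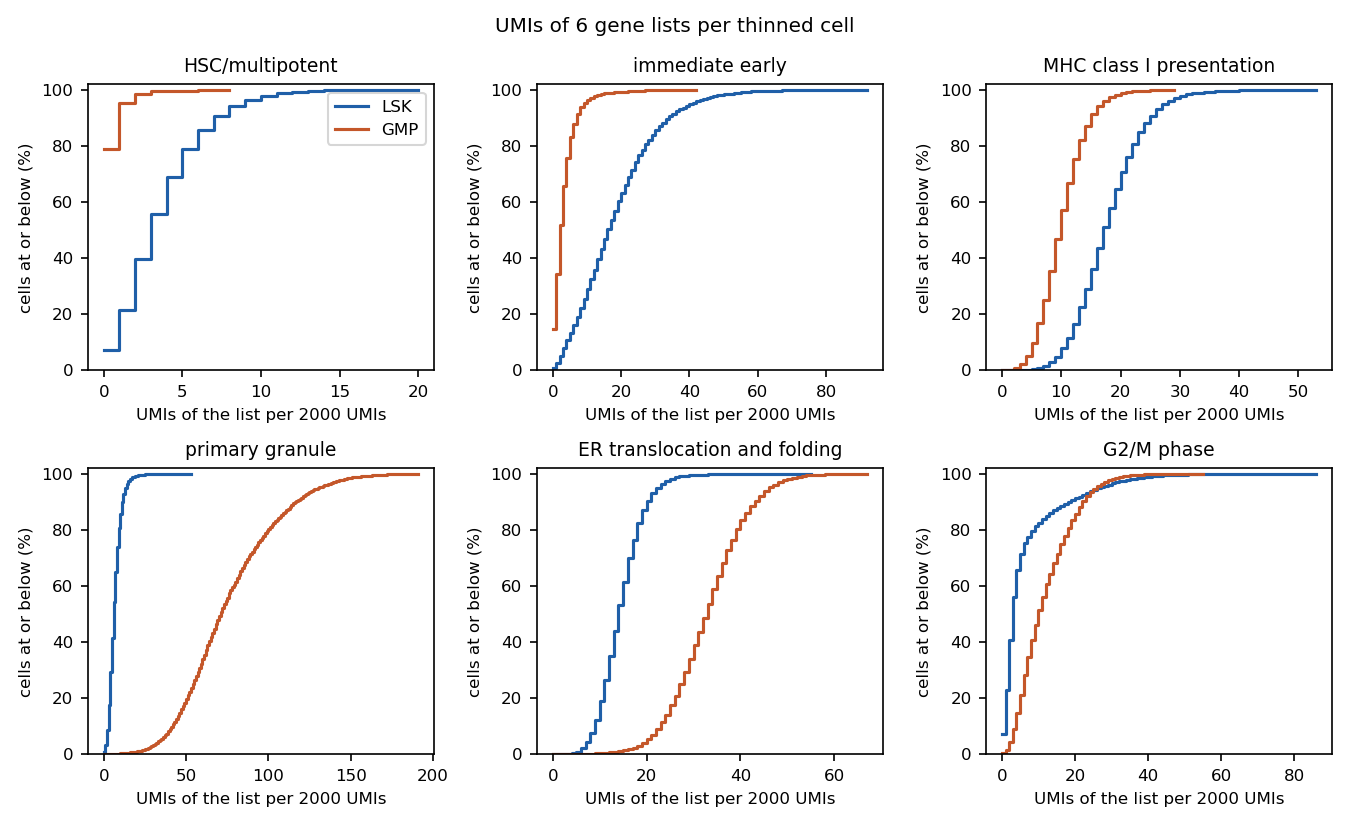
Cumulative share of LSK (blue) and GMP (orange) cells, in percent, against the UMIs of 6 gene lists per cell after thinning every cell to 2000 UMIs. The primary granule curves are nearly separate, the class I and ER curves overlap in part, and the G2/M curves cross near their upper ends.

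Cell by cell, the lists separated the libraries to different degrees. After thinning to 2000 UMIs, which left out no LSK or GMP cell, the median LSK cell held 6 UMIs of primary granule genes (5th to 95th percentile 2 to 14) and the median GMP cell 71 (35 to 130). A share of 0.0552% of LSK cells reached the 5th percentile of GMP. The ER list held 14 UMIs (8 to 22) in LSK and 33 (20 to 46) in GMP, and 12.9% of LSK cells reached the 5th percentile of GMP. The stem cell list held 3 UMIs (0 to 9) in LSK and 0 (0 to 1) in GMP, and 78.5% of LSK cells lay above the 95th percentile of GMP. The immediate early list held 16 UMIs (2 to 41) and 2 (0 to 9), the class I list 17 (10 to 28) and 10 (4 to 17), and 74.6% and 48.9% of LSK cells lay above the 95th percentile of GMP. For G2/M genes the median was 3 UMIs in LSK and 10 in GMP, but the 95th percentiles were 27 and 26. Most LSK cells thus held few G2/M UMIs, while the highest LSK cells held as many as the highest GMP cells. Median CMP loads were 24 for primary granule, 21 for ER, 10 for immediate early and 7 for G2/M genes.

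For most genes past the rule, the CMP level fell between those of LSK and GMP. These genes were chosen for a gap of at least 2-fold, which by itself makes an intermediate CMP level likely. The share among genes not past the rule is not given, so the counts do not show a gradient. CMP lay between LSK and GMP for 390 of the 420 genes higher in LSK and for 213 of the 236 higher in GMP. It lay above both for 21 and 7 of them. MEP was within 2-fold of GMP or lower for 326 of the 420, and within 2-fold of LSK or higher for 127. LSK was at least 2-fold above both CMP and MEP in 138 of the 420, and GMP at least 2-fold above both in 71 of the 236. GMP was at least 2-fold below both other gates in 48 of the 420 genes, and LSK in 8 of the 236. Hlf had 11.1 CPM in CMP and 1.16 in MEP, while Ccl3, a chemokine, had more in CMP (411 CPM) than in LSK (253), against 14.5 in GMP. Cebpe had 6.87 CPM in CMP and Prg2 0.0743, whereas F13a1 had 101.

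**Figure D5:**
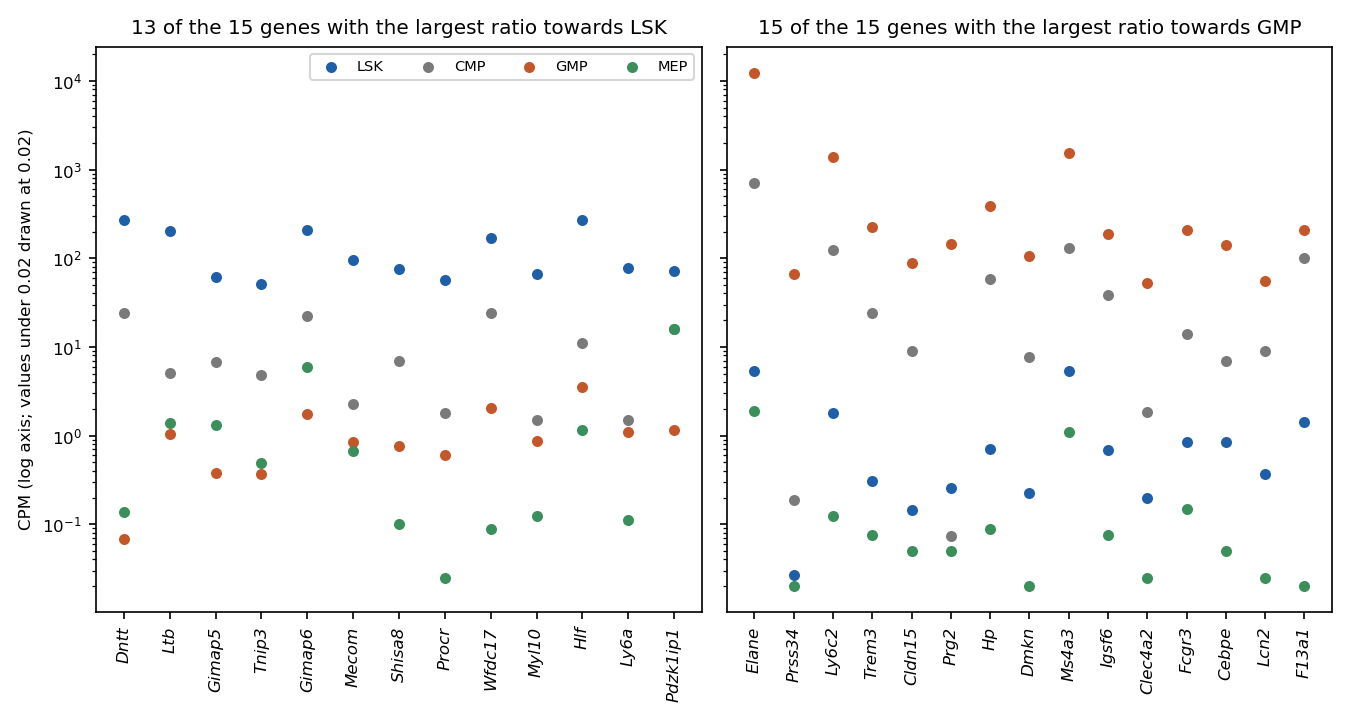
CPM on a logarithmic axis in the LSK, CMP, GMP and MEP libraries of 13 of the 15 genes with the largest ratio towards LSK (left) and of the 15 towards GMP (right), each point 1 library. On the left LSK is highest throughout and CMP lies above GMP throughout. On the right GMP is highest throughout, and LSK lies below CMP in all but Prg2.

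Some genes past the rule lay near each other in the genome. Within 100 kb, 66 of the 419 placed genes higher in LSK (15.8%) and 26 of the 236 higher in GMP (11.02%) had another gene past the rule in the same direction, and whether this exceeds what gene density gives was not tested. The longest row held 8 of the 14 measured genes from H2-K1 to H2-Eb1 in the major histocompatibility complex (chromosome 17, 33996017 to 34316674), all higher in LSK. Of these 8, H2-Ab1, H2-Aa and H2-Eb1 were past the rule on every scale, and H2-K1, H2-Ke6, H2-DMa, Tap1 and Tap2 on the CPM scale only. Gimap6, Gimap1, Gimap5, Tmem176b and Tmem176a lay together on chromosome 6 (48701582 to 48847071), and Tmem176b stood at 467 and 122 CPM. Ifitm1 and Ifitm3 lay in a row of 4 with Ric8 and Sirt3 (both on the CPM scale only) on chromosome 7 (140856957 to 141010770). On the GMP side the rows were the protease row on chromosome 10 and Ms4a6c, Ms4a6b and Ms4a3 on chromosome 19 (11469366 to 11640851). Genes of 1 row, several of them paralogs, are not independent of each other. Coordinates are those of GENCODE M21 on GRCm38.

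The promoters of both sides were poorer in CpG than those of other measured genes. A CpG ratio of 0.6 or more was found in 58.9% of the 321 genes higher in LSK and 62.2% of the 185 higher in GMP that have an entry, against 79.0% of the 2448 genes with 50 CPM or more. It was also found in 88.9% of the 18 ER genes, and in 0 of 7 class I and 0 of 4 interferon genes higher in LSK. A TATAAA box 40 to 20 bases before the start was in 3.78% of the GMP side, 0.935% of the LSK side and 1.18% of the measured genes. TTGCNNAA, the core that C/EBP factors bind, was in 12.97%, 6.54% and 7.97%, and the motif AGATAA, a core bound by factors such as the one Gata2 encodes, in 10.8%, 5.61% and 5.96%, on either strand. Over all 17853 entries the shares were 2.64% for the TATAAA box, 9.13% for TTGCNNAA and 8.82% for AGATAA. These motifs were chosen with the lists' values known, and the shares are descriptions.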

How the data were processed

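Single-cell 3' RNA libraries of 4 sorted mouse marrow gates, 1 library each, were used as raw UMI counts per gene and cell, deposited by the authors as matrices. Per the submitters' processing notes, the tools include Cell Ranger 2.0.0, CASAVA 1.8.2 and Seurat 2.3.0, and the build is mm10. Whether counting used strand or how reads shared by paralogs were assigned is not given in the sources used here, so overlapping and near-identical genes are uncertain. The LSK matrix holds all barcodes (737280, of which 519670 have a UMI), and 10883 had 2110 or more UMIs. The other matrices hold called cells only. The 2 CMP samples hold identical matrices and were counted as 1 library, with fewer cells than the series' design text names for CMP. Cells needed 500 genes and at most 10% mt- UMIs, which removed 13 LSK and 37 GMP barcodes.

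CPM are UMIs summed over a library's cells and scaled to its total (75167959 in LSK, 73362645 in GMP). A count of 3 UMIs equals 0.0399 and 0.0409 CPM, and counts under 3 were set to 3 in ratios. Exact 95% intervals were conditional binomial for ratios and Clopper-Pearson for shares of cells, and both cover counting error only. Alternatives were median-of-ratios and TMM factors (edgeR 4.0.16, R 4.3.3), a total without ribosomal protein and mt- genes, other cell filters, removal of likely doublets (8.69% of LSK and 6.42% of GMP cells, kept otherwise), thinning, per-cell means, and other limits. Python 3.11.15 with numpy 2.4.6, scipy 1.17.1 and pandas 2.3.3 was used. On simulated counts for 27998 genes, 200 were changed 3-fold between these libraries. Of these, 100% passed, with 0 others, and 96.15% of the intervals held the true ratio. The simulation held counting noise only and changed only genes above the 50 CPM minimum, so this outcome was near certain. It is a check of the calculation and not of the calls in the data.

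The gene lists and the rule were chosen with earlier results of these data known. Motifs and the per-cell loads of the ER, immediate early and class I lists were chosen after the lists' values were seen. Genes were named by rule: the 15 largest ratios in each direction (without predicted, ribosomal protein and mt- genes), the gate antigens, up to 4 most abundant and up to 4 further past-rule members of each list, the 5 most abundant past-rule genes of each library, members of genomic rows, and the 2 genes nearest each side of the 2-fold limit. Further members of the lists are named where a count turns on them. Promoters came from RefSeq (17853 genes matched by symbol, on the same chromosome and strand), and coordinates from GENCODE M21 (27645 of 27998 IDs). Protein features were not analysed here. A few genes that the rule names are not reported here.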

Additional observations from a re-analysis of the deposited data

How the results depend on the processing

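Under median-of-ratios factors 194 genes were higher in LSK, the genes higher in GMP numbered 836, and LSK held 18.8% of the calls in place of 64.0%; under TMM factors these were 212, 701 and 23.2%. With the total taken without ribosomal protein and mt- genes, 742 were higher in LSK, 76.1% of the calls, and 200 of the 236 genes higher in GMP still met the rule; 12 of the 92 named for GMP and none of the 98 named for LSK fell out of it, and the median log2 ratio of the macrophage list turned from -2.60 to 1.47, its detected members being few. A minimum of 10 CPM gave 1666 and 407 genes (80.4% LSK), no minimum 5524 and 1013 (84.5% LSK), and a ratio of 4 gave 165 and 70. Of 98 named genes higher in LSK, 37 no longer met the rule under median-of-ratios and 32 under TMM factors, while all 92 named for GMP met it under both, as their shift towards GMP implies, and none of the 98 and 92 genes changed direction under the settings run. List medians changed sign for 7 and 6 of 61 lists under these factors. Without likely doublets, 1 of the 98 and 3 of the 92 fell out of the rule. Thinning to 1000 UMIs moved the share of LSK cells at or above the 5th percentile of GMP to 30.3% for the ER list (12.9% at 2000). It moved the share of LSK cells above the 95th percentile of GMP to 49.7% for the stem cell list (78.5%), 67.0% for immediate early (74.6%) and 29.8% for class I genes (48.9%). No paired analysis was possible because each gate is 1 library with no replicate number.

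With 1 library a gate, spread between mice and between preparations was not measured, and intervals cover counting error only. LSK cells had fewer UMIs than GMP cells (medians 5991.5 and 9100), so shares of cells were compared after thinning, which lowers shares for weakly expressed genes. Genes under 50 CPM in both libraries enter no count of calls.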

Other observations

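Several LSK genes below the 50 CPM minimum had ratios of over 10-fold; those in this paragraph were chosen after their values were seen. Mycn, a relative of Myc, stood at 41.2 CPM in LSK and 0.232 in GMP, while Myc stood at 101 and 72.8 CPM, so the 2 genes differed in their ratio between gates. Esam, an adhesion molecule used to sort stem cells, stood at 29.96 and 0.0682 CPM. Hes1, a target of Notch signalling, stood at 18.4 and 0.0682 CPM, and Socs3, an inhibitor of cytokine signalling, at 37.6 and 0.559 CPM.

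Imprinted genes, which are expressed from 1 parental allele, had 8 detected members, all with a positive ratio and none past the rule, since 7 of them were under 50 CPM. Their median log2 ratio was 5.21. Meg3, a long noncoding RNA, stood at 10.4 CPM in LSK with 1 UMI in GMP, Ndn at 11.1 and 0.0545 CPM and Cdkn1c at 24.9 and 0.463 CPM. Gnas, the member above 50 CPM, stood at 767 and 512 CPM. Of 25 polycomb and DNA methylation genes 23 had a positive ratio, against 73.6% of all genes of 10 to 50 CPM and 82.9% of those of 3 to 10 CPM, with a median of 0.72, and Cbx6 was past the rule (56.8 and 8.42 CPM, CPM scale only), while Ezh2 stood at 173 and 163 CPM and Dnmt1 at 90.8 and 83.7 CPM.

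Within families, members went in opposite directions. Among chemokines, Ccl3, Ccl4 and Pf4 were higher in LSK and Ccl9 in GMP (90.5 and 301 CPM). Among serpins, Serpina3g was higher in LSK (137 and 12.4 CPM) and Serpinb1a in GMP (307 and 624 CPM). Among hexokinases, Hk1 was higher in LSK (50.4 and 23.5 CPM, CPM scale only) and Hk3 in GMP (24.8 and 83.7 CPM). In the BCL2 family, Mcl1, which opposes cell death, was higher in LSK (106 and 24.1 CPM), and Bid, which promotes it, in GMP (32.4 and 83.4 CPM). Among the S100 genes, S100a8, S100a9 and S100a11 (308 and 672 CPM) were higher in GMP and S100a6 in LSK on the CPM scale only.

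In 20 of 21 detected genes of the Notch, Wnt, TGF-beta and retinoid list the ratio was positive, where 82.9% of all genes of 3 to 10 CPM and 73.6% of those of 10 to 50 CPM had a positive ratio. All 9 detected Hox genes had a positive ratio, and Hoxa7 (69.4 and 20.8 CPM) and Hoxa9 were past the rule. Of 43 detected clustered histone genes, Hist1h2ap and Hist1h2ae were past the rule on the CPM scale only, and their near-identical copies make single members uncertain. Genes nearest the 2-fold limit were Ptprc and Hnrnpd just inside and Bcl7c and Tia1 just outside towards LSK, and Mrpl36 and Mrpl51 just inside and Ctsc and Cst3 just outside towards GMP.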
